A study of Mus musculus with 2 samples.

Results

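The nuclear genes of the mitochondrial respiratory chain and the ATP synthase were compared between SN4741 cells after 12 h of Oxi-beta overexpression and control SN4741 cells at 0 h. SN4741 is a mouse cell line, labelled as immortalized dopaminergic neuronal cells, that was kept at 33 C. Members were the array probes whose platform gene symbol began with Nduf, Uqcr, Atp5 or Cox and a digit, or was Sdha to Sdhd, Cyc1 or Cycs. This gave 86 probes for 78 genes, out of 9762 named probes for 7939 genes. The detection p-value sets a probe's signal against background, and a probe counted as detected where this p-value was under 0.01 on at least 1 array. Of the 78 genes, 74 were detected, and all 74 were detected on both arrays, out of 6702 detected genes in all. All 7939 named genes, the 78 included, met a looser detection cut of 0.05. The shares of named genes that were detected, here and below, were therefore partly fixed in advance.

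Each group was 1 single-colour Illumina array, and each array carried RNA pooled from 3 samples. With 1 array in each group there is no replicate check, differences carry no p-value, and precision is limited by having only these arrays. The sources used here do not say how Oxi-beta was introduced or whether control cells had an empty vector, and hours in culture cannot be told apart from overexpression. Oxi-beta is another name of Tnfaip8l1 in the literature, and 0 named probes carried that symbol, so the overexpression itself was not checked. Whether its probe was undetected or not on the array was not examined. On the overexpression array 8799 of 24613 probes (35.7%) were detected, against 8814 (35.8%) on the control array. Most markers of dopamine neurons had no named probe here, which does not tell an undetected probe from none on the array. Of 13, 3 had a named probe, all 3 detected (Nr4a2, En1 and Foxa2) and all 3 with a positive difference (median 0.15 on the log2 scale, overexpression minus control), and Th and Slc6a3, which define the cell type, had none. Of 9 pan-neuronal markers 5 were detected, 4 with a positive and 1 with a negative difference (Stmn2). Their summed signal was 5179 on the overexpression array and 5786 on the control array, of which Stmn2 held 3357 and 4050. Summed signals here are deposited ones, not normalized, and over all genes the median ratio of overexpression to control was 0.947. With median centring in place of quantile normalization Uchl1 was negative too. Nefm and Tubb3, both positive, were detected on the overexpression array alone, at least 1.285-fold and 1.066-fold higher. Detection through that array favours a positive sign. Of 8 fibroblast and mesenchymal markers 4 were detected, with a summed signal of 52473 on the overexpression array and 59016 on the control array and a negative difference for all 4 (median -0.22). The astrocyte marker Slc1a3 was detected on the control array alone, with signals of 182 on the overexpression array and 239 on the control array, at least 1.335-fold lower. The part of these markers in the values below was not tested, and in RNA of whole cultures fewer cells of a type and less RNA per cell cannot be told apart.

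The respiratory chain passes electrons from NADH, through complex I, and from succinate, through complex II, to ubiquinone, then through complex III and cytochrome c to complex IV, which reduces oxygen. Complexes I, III and IV pump protons across the inner mitochondrial membrane, and the ATP synthase (complex V) uses their return to make ATP. Loss of complex I activity is a known feature of the substantia nigra in Parkinson's disease, and inhibitors of complex I kill dopamine neurons. Most subunits are encoded in the nucleus and a few in mitochondrial DNA, and 0 probes for genes of mitochondrial DNA had a name here. Of 107 protein-coding genes in mouse RefSeq with a matching symbol, 29 had no named probe and were not analysed here, among them the complex I core genes Ndufs1 and Ndufv2, the succinate dehydrogenase gene Sdha, the iron-sulfur gene Uqcrfs1 and the cytochrome c gene Cycs. For these 29 and for the genes of mitochondrial DNA, an undetected probe cannot be told from none on the array.

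Differences below are overexpression minus control, on log2 signals after background correction and quantile normalization. Transcripts of the chain differed little between the arrays. Among the 74 genes, 37 had a positive and 37 a negative difference, and their median was 0.0022, against -0.0036 over all 6702 genes. The interquartile range of the members went from -0.063 to 0.063, against -0.093 to 0.087 for all genes. Within 1.1-fold were 53 of the 74 members (71.6%), against 67.6% of all genes. A difference of 0.32 or more in size on the log2 scale (25% higher, or 20% lower) was the threshold used for counts. Past it, 2 members were higher, where 2.70% of all genes were, and 1 member was lower, where 2.83% of all genes were. For both directions together 5.54% of all genes were past the threshold, so the members' count of 3 of 74 lay near the background. At 1.5-fold, 0 members were higher, against 0.582% of all genes, 0 were lower, against 0.433%, and both directions together held 1.01% of all genes.

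The 3 genes past the threshold were Ndufb7 and Ndufb11, accessory subunits in the membrane arm of complex I, and Atp5k, which encodes subunit e of the ATP synthase. Subunit e lies in the membrane and takes part in the pairing of ATP synthases into dimers. The 250 bases before the RefSeq start of each gene (GRCm38.p6, written along the gene's strand) are shown because these genes had the members' largest differences. Capitals mark the motifs that lie wholly within these bases, which are described with the promoters further on.
Ndufb7: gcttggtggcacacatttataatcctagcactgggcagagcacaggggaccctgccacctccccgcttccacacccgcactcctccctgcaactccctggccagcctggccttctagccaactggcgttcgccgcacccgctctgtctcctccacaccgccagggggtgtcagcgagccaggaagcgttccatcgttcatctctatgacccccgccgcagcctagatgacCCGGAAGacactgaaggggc
Ndufb11: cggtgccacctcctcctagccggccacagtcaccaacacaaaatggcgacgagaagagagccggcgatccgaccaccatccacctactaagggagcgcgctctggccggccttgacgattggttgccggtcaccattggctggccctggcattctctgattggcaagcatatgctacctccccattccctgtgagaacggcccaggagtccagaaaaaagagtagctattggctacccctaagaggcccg
Atp5k: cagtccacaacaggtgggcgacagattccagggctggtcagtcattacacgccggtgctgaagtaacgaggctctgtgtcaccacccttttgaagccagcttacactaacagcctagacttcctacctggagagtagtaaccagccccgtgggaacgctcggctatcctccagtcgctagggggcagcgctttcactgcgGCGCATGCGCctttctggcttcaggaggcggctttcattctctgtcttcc
The windows lie at chr8:83566508-83566757 on the plus strand for Ndufb7, at chrX:20617620-20617869 on the minus strand for Ndufb11 and at chr5:108434400-108434649 on the minus strand for Atp5k.

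Ndufb7 had a signal of 871 on the overexpression array and 715 on the control array. Its log2 difference was 0.42, or 1.34-fold higher, with 0.31 to 0.42 over the processing alternatives. Atp5k had a signal of 481 on the overexpression array and 648 on the control array, a log2 difference of -0.41, or 1.33-fold lower, with -0.52 to -0.35 over the alternatives. RefSeq lists 4 genes named as pseudogenes of Atp5k, and whether they add to the signal of its probe was not tested. Ndufb11 lay close to background, at 234 on the overexpression array and 209 on the control array, where the lowest detected signals were 196 and 201. Its log2 difference was 0.34, and it was 0.20 in the authors' deposited values and 0.20 without background correction, which is short of the threshold. Each of these genes was read by 1 detected probe.

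**Figure D1:**
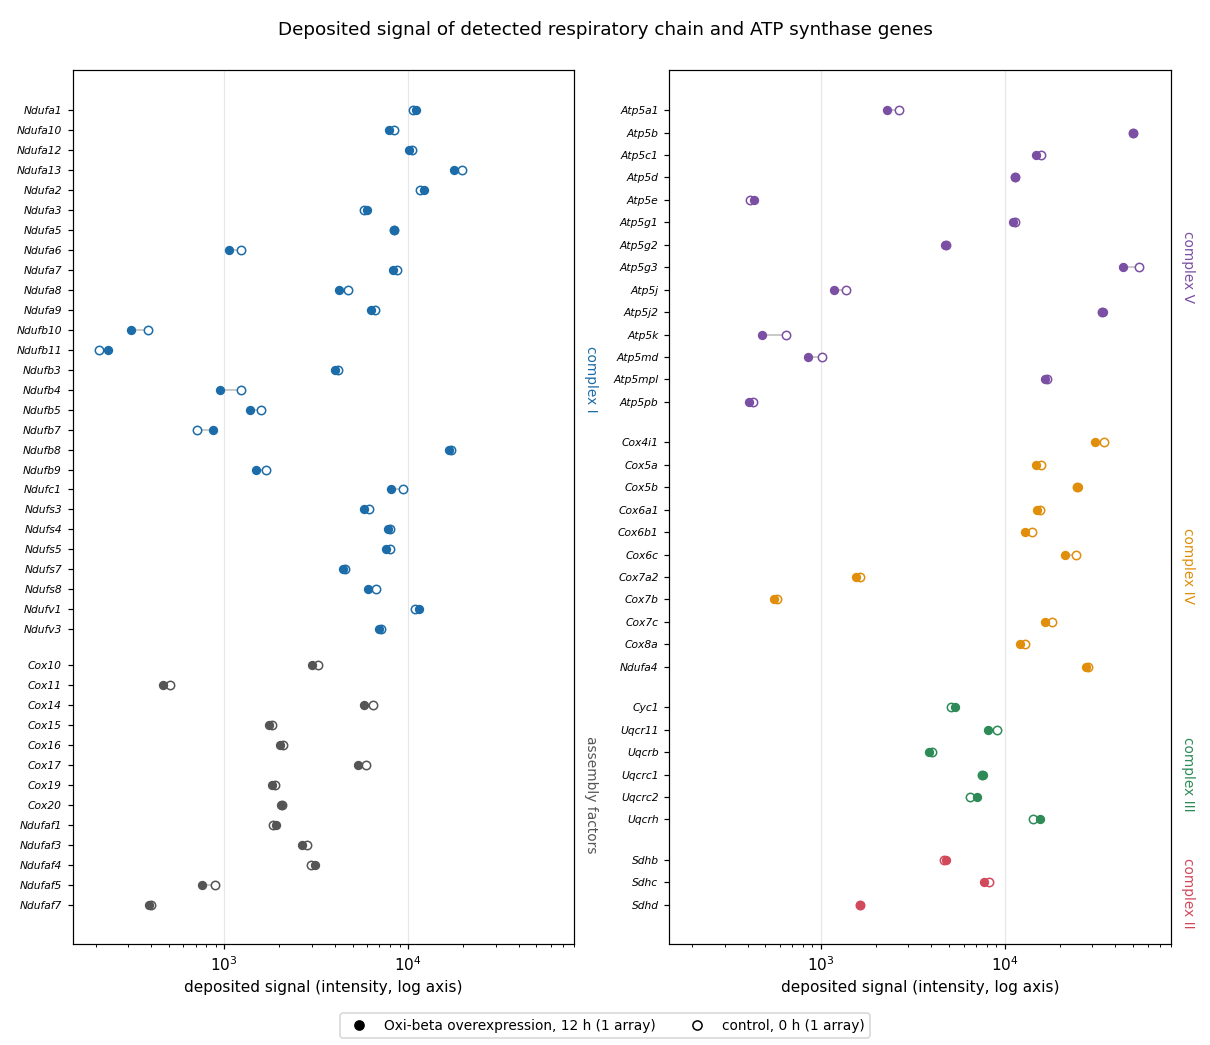
Deposited signal (intensity, log axis) of the 74 detected member genes, each by its brightest probe, grouped by complex. Filled points are the overexpression array and open points the control array; most pairs nearly coincide, and Ndufb7, Ndufb4, Ndufb10 and Atp5k are among the visibly separated pairs.

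Complex I was represented by 27 detected genes, 13 with a positive and 14 with a negative difference, and a median of -0.0022. Its core subunits, among which are the carriers of the flavin and the iron-sulfur clusters, had differences from -0.059 to 0.16 over 4 genes. The highest of these was Ndufv1, the subunit that binds NADH and the flavin, with signals of 11547 on the overexpression array and 10925 on the control array. The accessory subunits named Ndufa had differences from -0.13 to 0.15 over 11 genes. The 8 genes named Ndufb, whose products sit in the distal part of the membrane arm, had a wider range, from -0.31 to 0.42, with 4 positive and 4 negative. Their standard deviation was 0.27, against 0.099 for the Ndufa genes. The brightest probe in complex I belonged to Ndufa13, also known as Grim19 and as a cell death regulator, with signals of 17709 on the overexpression array and 19801 on the control array and a difference of -0.089. A probe's signal depends on its sequence as well as on its transcript, so the brightest probe does not mark the most abundant transcript.

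At the low end of complex I, Ndufb4 had signals of 947 on the overexpression array and 1232 on the control array and a log2 difference of -0.31, 1.24-fold lower and just short of the threshold. Ndufb10, named after its value was seen, had signals of 313 on the overexpression array and 386 on the control array and a difference of -0.31. Ndufb7 and Ndufb11 therefore lay above, and Ndufb4 and Ndufb10 below, the other Ndufb genes, which ran from -0.13 for Ndufb5 to 0.029 for Ndufb8. Ndufb4 had a mean signal of 1089.6 and the other 3 a mean signal under 1000, where the differences of all genes were also wider, as described with the brightness of probes.

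Complex II had 3 detected genes. Sdhb, the iron-sulfur subunit of succinate dehydrogenase, had signals of 4789 on the overexpression array and 4688 on the control array and a difference of 0.11. Sdhc, a membrane anchor that takes part in binding heme and ubiquinone, had 7697 on the overexpression array and 8244 on the control array and a difference of -0.037. The other anchor gene, Sdhd, had 1637 on the overexpression array and 1635 on the control array. The values of all 3 genes were within 1.1-fold.

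Complex III stood slightly to the positive side, with 5 of its 6 detected genes positive, against 48.6% of all genes, and a median of 0.11. Uqcrc2, a core subunit, had signals of 7075 on the overexpression array and 6499 on the control array and a difference of 0.19, or 1.14-fold higher. Uqcrh, the hinge protein near cytochrome c1 and the brightest probe of the complex, had 15552 on the overexpression array and 14268 on the control array, a difference of 0.18. Cyc1, the cytochrome c1 gene, had 5405 on the overexpression array and 5136 on the control array, a difference of 0.16 (named after its value was seen). The lowest was Uqcr11, a small accessory subunit, at -0.089 with signals of 8157 on the overexpression array and 9042 on the control array. Of the 6 genes 0 reached the threshold, and with median centring in place of quantile normalization the median was 0.031. In that setting Uqcrc1 and Uqcrb were negative as well as Uqcr11.

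Complex IV had 11 detected genes, all between -0.15 and 0.082, 4 positive and 7 negative, with a median of -0.033. Their standard deviation was 0.067, the smallest among the 5 complexes. Cox5b, a zinc-binding subunit, had the highest difference, 0.082, with signals of 25172 on the overexpression array and 24848 on the control array. Cox6c had the lowest, -0.15, with signals of 21218 on the overexpression array and 24316 on the control array. Cox4i1, the widespread form of the regulatory subunit 4 and the brightest probe of the complex, had 31071 on the overexpression array and 34689 on the control array, a difference of -0.11. Ndufa4, once counted with complex I and now placed in complex IV, was at 0.010.

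Several subunits of complex IV exist as tissue forms. The forms found outside muscle, Cox7a2 and Cox8a, had differences of 0.016 and -0.033. Cox4i2, the form of subunit 4 linked to lung and to low oxygen, was not detected, with signals of 158 on the overexpression array and 145 on the control array and detection p-values of 0.029 and 0.052 on those arrays. Cox7a1, the form of heart and skeletal muscle, was not detected either, with signals of 163 on the overexpression array and 184 on the control array and detection p-values of 0.026 and 0.013 on those arrays. Of the 5 muscle markers 0 had a named probe. Ndufab1, the acyl carrier protein of mitochondria, and Ndufb2 also fell short of detection, and their lowest detection p-values were 0.029 and 0.021. Just inside the threshold stood Ndufb11, with detection p-values of 0.0049 on the overexpression array and 0.0073 on the control array.

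The ATP synthase had 14 detected genes, 6 positive and 8 negative, with a median of -0.0034. In the catalytic F1 part, 5 genes ran from -0.14 for Atp5a1 to 0.18 for Atp5e, which encodes the epsilon subunit and had signals of 431 on the overexpression array and 411 on the control array. The catalytic beta subunit gene Atp5b had the brightest probe of the complex on the overexpression array, with 49659 there and 49839 on the control array, a difference of 0.026. Atp5g1, Atp5g2 and Atp5g3 encode the same mature c-ring protein from separate genes with different import sequences. Their differences were 0.032 for Atp5g1, 0.062 for Atp5g2 and -0.24 for Atp5g3. Atp5g3 had signals of 44119 on the overexpression array and 53951 on the control array, 1.18-fold lower, near the top of a scale whose highest signals were 61369 and 62237 on those arrays. Its difference ran from -0.30 to -0.24 over the alternatives.

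**Figure D2:**
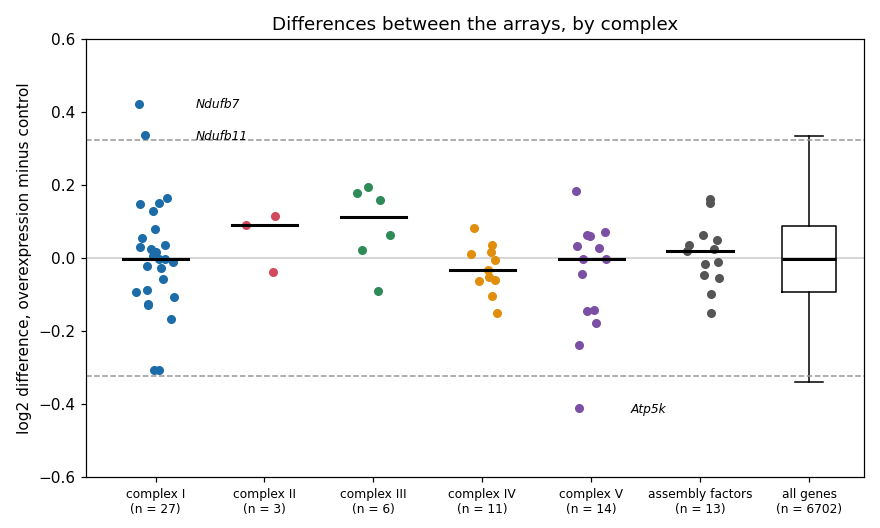
Log2 difference (overexpression minus control) of each detected member gene by complex, with black bars at the medians and dashed lines at the threshold of 0.32. The box at the right gives the median, quartiles and central 95% of all 6702 genes; 3 members lie outside the dashed lines, Ndufb7, Ndufb11 and Atp5k, and the medians run from -0.033 for complex IV to 0.11 for complex III.

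The small subunits in the membrane part of the ATP synthase included Atp5k at the low end. Beside it, Atp5md, which encodes the small protein DAPIT and was named after its value was seen, had signals of 849 on the overexpression array and 1015 on the control array and a difference of -0.18. Atp5j2, which encodes subunit f, was at 0.060 and Atp5mpl at -0.0037. The 2 detected peripheral stalk genes, Atp5j and Atp5pb, were at -0.15 and -0.0032. After Atp5k the lowest of the 14 genes was Atp5g3.

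Assembly factors, which help to build the complexes without staying in them, had 13 detected genes with a median of 0.018, a range from -0.15 to 0.16 and 0 past the threshold. Ndufaf4, a factor of complex I, had signals of 3106 on the overexpression array and 2969 on the control array and a difference of 0.16. Ndufaf5, which hydroxylates a core subunit of complex I, had 757 on the overexpression array and 889 on the control array, a difference of -0.15, and its second probe gave -0.13. The 8 factors of complex IV, among them the heme synthesis genes Cox10 and Cox15 and the copper chaperone gene Cox17, all lay within 1.1-fold. The brightest of these was Cox14, with 5750.1 on the overexpression array and 6464 on the control array and a difference of -0.098.

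Probes of the same gene give the only measure of error within the arrays. Of the members, 7 had several detected probes. Over the 6 genes with several probes detected on both arrays, the standard deviation between probes had a root mean square of 0.082, against 0.15 over 999 genes of the whole array. Over all 7 genes, with Ndufv3 included, it was 0.12, against 0.17 over 1090 genes with probes detected on at least 1 array. This measure says nothing of the spread between samples. In 2 of the 7 genes the probes had opposite signs. For Cox6b1, a subunit at the face that meets cytochrome c, they gave -0.061 and 0.068. For Ndufa5 they gave 0.078 at signals of 8443 on the overexpression array and 8375 on the control array, and -0.10 at 831 on the overexpression array and 944 on the control array. The probes of the other 5 genes had like signs. Cox6a1 had -0.0049 and -0.066, and the core gene Ndufs3 had -0.012 and -0.14. Ndufs4, an accessory subunit whose loss in mice gives a model of Leigh syndrome, had 3 probes, at 0.026, 0.098 and 0.17. The brighter probe of Ndufv3 gave 0.035, at signals of 6930.1 on the overexpression array and 7125 on the control array. Its dimmer probe, at 198 on the overexpression array and 177 on the control array, reached detection on the overexpression array alone, and its bound was at least 1.0276-fold higher. The standard deviation over all 74 members, 0.13, lay between the values of 0.082 and 0.15 for probes detected on both arrays.

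**Figure D3:**
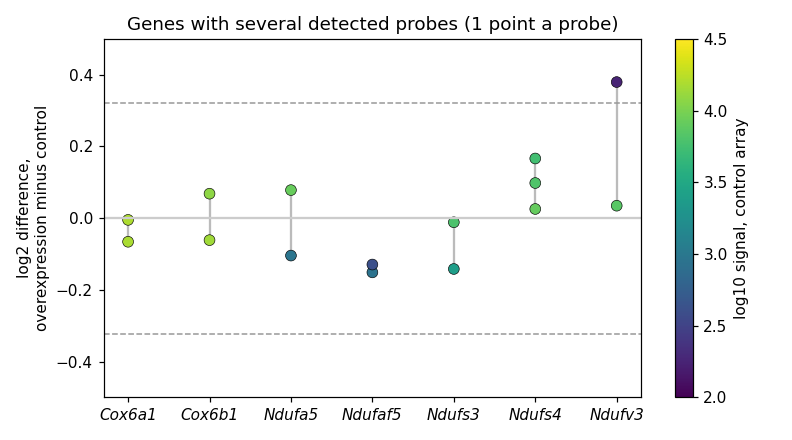
Log2 difference (overexpression minus control) of each detected probe for the 7 member genes with several probes, coloured by the log10 signal on the control array. Probes of Cox6b1 and Ndufa5 fall on both sides of 0, and the dim probe of Ndufv3, fitted at 0.38, lies above the dashed line at 0.32 while its bright probe is at 0.035.

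The size of the differences moved with probe brightness. Of 11 members with a mean signal under 1000, 3 were past the threshold, and of 63 members with a mean signal of 1000 or more, 0 were. Over all genes the shares were 9.98% of 3277 dim genes and 1.28% of 3425 brighter genes. The median size of the difference was 0.18 among the 11 dim members and 0.062 among the 63 brighter ones, against 0.12 and 0.071 for all genes in the same ranges. For the brighter members, which make up most of the chain, 49 of 63 (77.8%) lay within 1.1-fold, against 78.5% of all bright genes.

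**Figure D4:**
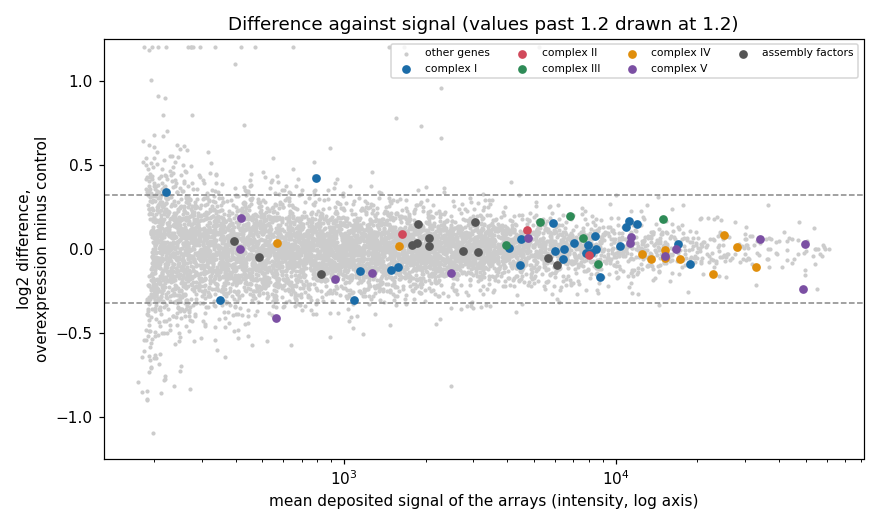
Log2 difference (overexpression minus control) against the mean deposited signal (log axis) for the members, coloured by complex, and for the other detected genes in grey; dashed lines mark the threshold of 0.32. The cloud of all genes narrows as signal grows, and the 3 members outside the lines all have mean signals under 1000.

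The arrays differed in scale. Deposited signals were lower on the overexpression array for 56 of the 74 members (75.7%), and so were those of 74.9% of all genes, with median ratios of overexpression to control of 0.958 for the members and 0.947 for all genes. Quantile normalization removed this shift. Median centring used the median over all 24613 probes of each array, most of them undetected, so it did not align the detected genes. With median centring of the background-corrected values instead, the median of all genes was -0.10 and that of the members -0.079, with 15 members positive and 59 negative, or 20.3% positive against 22.9% of all genes. Relative to the median of all genes the members then stood at 0.021.

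Promoters of the chain are known for sites of NRF1, of ETS factors such as GABP, and of YY1, which are linked to mitochondrial biogenesis. RefSeq windows from 250 bases before to 50 after the start were found for 63 of the 74 members. The 10-base NRF1 palindrome, which stands in capitals in the Atp5k stretch above, was present on either strand for 6 of the 63 genes (9.52%), against 2.51% of 5535 detected genes and 1.07% of all 27025 genes with a window. With its single A replaced by any base, which includes the matches of the palindrome, it was present for 14 members (22.2%), against 13.2% of detected genes and 5.19% of all. CCGGAAG, the core of ETS sites, was present on either strand for 20 members (31.7%), against 22.7% of detected genes and 9.93% of all. An 11-base YY1 motif was present for 4 members (6.35%), against 2.22% of detected genes and 0.755% of all. TGACGTCA, the cyclic AMP response element (CRE), was present for 1 member (1.59%), against 3.96% of detected genes and 2.03% of all. These shares describe letters in a window and say nothing of binding.

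The differences of members with and without a motif were close. Members with the exact NRF1 palindrome had a median difference of 0.029 (6 genes), against 0.010 for the 57 without it. Members with the free-base NRF1 motif had a median difference of -0.034 (14 genes), against 0.016 for the 49 without it. Members with the ETS motif had -0.0082 (20 genes), against 0.016 for the 43 without. In the sequences printed above, the NRF1 motif of Atp5k begins 50 bases before the start and the ETS motif of Ndufb7 begins 20 bases before it. The longer window of Atp5k also held the ETS motif, which does not lie wholly within the printed stretch. The printed stretch of Ndufb11 held 0 of the motifs searched.

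**Figure D5:**
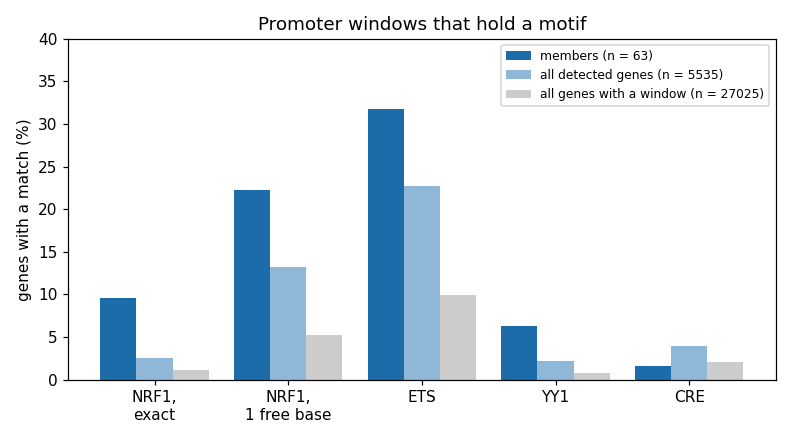
Share of genes (%) whose promoter window holds each motif on either strand, for the members (63 genes), all detected genes (5535) and all genes with a window (27025). The members have the highest share for NRF1, ETS and YY1, up to 31.7% for ETS, and the lowest for CRE.

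Other genes of mitochondrial respiration were read from lists outside the symbol pattern. Beside each list, 48.6% of all genes were positive, 2.70% were past the threshold on the higher side and 2.83% on the lower. Of 37 further assembly and inhibitor genes, 21 were detected, 16 positive and 5 negative, with a median of 0.043. With median centring all but Uqcc1, Ecsit, Tmem126b, Bcs1l and Slirp were negative, and 22.9% of all genes were positive. In the main setting 1 gene of this list was past the threshold. That gene was Uqcc1, a factor of complex III, with signals of 270 on the overexpression array and 238 on the control array and a difference of 0.35, which was 0.23 in the authors' deposited values. The lowest was Acad9, a flavoprotein needed to assemble complex I, with 586 on the overexpression array and 740 on the control array and a difference of -0.29. In all, 15 of the 21 genes lay within 1.1-fold.

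Regulators of mitochondrial DNA expression and biogenesis had 14 detected genes of 23, 5 positive and 9 negative, with a median of -0.060 and 0 past the threshold. Gabpa, the DNA-binding subunit of GABP, was highest at 0.20, with signals of 545 on the overexpression array and 515 on the control array. Creb1, the CRE-binding factor, had the lowest fitted value. It was detected on the control array only, with signals of 181 on the overexpression array and 207 on the control array, and on its bound was at least 1.055-fold lower. Enzymes of the tricarboxylic acid cycle and of pyruvate entry had 15 detected of 19, 9 positive and 6 negative, with a median of 0.026 and 1 past the threshold by its fitted value alone. This was Sucla2, a subunit of succinyl-CoA synthetase. It reached detection on the overexpression array alone, with signals of 199.7 on the overexpression array and 180.4 on the control array, and on its bound was at least 1.04-fold higher. Pdhb, a subunit of pyruvate dehydrogenase, was lowest at -0.19, with 276 on the overexpression array and 315 on the control array.

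Import proteins and inner and outer membrane carriers had 20 detected genes of 26, 11 positive and 9 negative, with a median of 0.019. The outer membrane channel gene Vdac1 was highest at 0.19, with signals of 24656 on the overexpression array and 22585 on the control array. Tomm40, the import pore of the outer membrane, was lowest, with 212 on the overexpression array and 258 on the control array and a difference of -0.40, which was -0.25 in the authors' deposited values. With Slc25a12, a carrier of aspartate and glutamate, it made up the 2 genes of this list past the threshold on the lower side, against 2.83% of all genes. Slc25a12 had 406 on the overexpression array and 535 on the control array and a difference of -0.39.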

How the data were processed

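RNA of 2 cell pools was measured on 1 Illumina array each. Per the file headers, the deposited signal intensity is not normalized, and a detection p-value was deposited for each probe and array. BeadStudio is named, without a version, per the submitters' processing notes. The table of processed values is on a log2 scale as deposited and covers 11090 probes. Sorted, its columns are identical, as after quantile normalization; scale and normalization are read from the values, and single genes were not centred (column medians 9.19 each). Its overexpression values correlated at r = 0.99998 with the signals of the column named test and at 0.99613 with those of the control, by which that column was taken as the overexpression sample. No build is named for the arrays.

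Signals were background-corrected with limma 3.58.1 in R 4.3.3 (function nec with offset 16), then quantile-normalized, then log2-transformed. The steps were tested on simulated data, for unchanged probes and for changes larger than the threshold, all in probes well above background. The simulated noise was set in advance and not taken from the disagreement between probes in these data. That test does not cover dim probes or changes near the threshold. Background correction widens differences of dim probes. A gene was represented by its brightest named probe; entrez identifiers of all 86 member probes gave the same symbol in RefSeq. For a probe detected on 1 array, the fold is a bound, written "at least": the dim array's value was replaced by the lowest value of any detected probe there, unless the probe's own was higher. Named genes were every member past the threshold, the highest, lowest and brightest of each complex, genes with several probes, tissue isoforms, and the highest and lowest of each other list. Members and lists were chosen with earlier results of these data known. Signals were ranked across probes to choose and describe the brightest, which gives no order of transcript levels.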

Additional observations from a re-analysis of the deposited data

How the results depend on the processing

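With 1 array in each group, no setting gives a test. No paired analysis was possible because each group had 1 array. The spread used to judge movement was 0.082 on the log2 scale, the disagreement between probes of a member gene detected on both arrays. It is the smallest of the values given above for probe disagreement. The count of members past the threshold on the higher side (2 as reported, where 2.70% of all genes were higher) was 1 without background correction (1.01% of all genes), 1 with offset 50 (1.91%), 1 in the authors' value table (1.15%) and 0 with median centring (1.39%); Ndufb11 left it in the first 3 of these settings and Ndufb7, at 0.31, as well in the last. The count lower (1, where 2.83% of all genes were lower) was 3 of 74 with median centring, which adds Ndufb4 and Ndufb10 and where 7.58% of all genes were lower, and 2 of 78 with detection p under 0.05 on at least 1 array, which adds the dim Ndufb2 and where 4.57% were lower. Median centring moved the medians to -0.076 for assembly factors, -0.086 for complex I and -0.0084 for complex II, while the median of all genes moved to -0.10, and the median ratio of deposited signals over all genes was 0.947. Of 63 recomputed counts and medians 54 stayed within the limits and 9 did not, and of 210 recomputed values of named genes 18 moved by more than 0.082. Some of these could not move. Detection on both arrays changed nothing for members, since all 74 met it. Detection p under 0.05 could not change values of named genes, and the mean over probes only those with several detected probes. The sign of Ndufb7, Ndufb11 and Atp5k was the same in all 7 alternatives, but was fixed in advance in the detection and probe-mean settings. Signal near background limits Ndufb11 and the 4 undetected members.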
